A study of Danio rerio with 20 samples.

Results

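Cell adhesion and axon guidance genes were taken from a table of genes that the authors found to differ between old and young wild-type (WT) zebrafish brains. A gene was included when its symbol in the table began with the name of 1 of 21 families, which are cadherins, protocadherins, Eph receptors and ephrins of the A and B classes, semaphorins, plexins, neuropilins, Robo receptors, Slits, contactins, contactin associated proteins, neurexins, neuroligins, netrins, Unc5 receptors, DCC, DSCAM, LRRTM proteins and FLRT proteins. The endothelial cadherin gene cdh5 was left out by the rule. This gave 22 genes of the 2885 distinct genes in the table. They belong to 12 of the 21 families, and 9 families had no member.

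Whole brains were taken from male fish on an AB background for sequencing of their poly(A) RNA, and the labels cover 20 libraries in 7 groups. The groups compared in the table were WT fish aged over 30 months, with 3 labelled libraries, and WT fish aged 2 months, with 2 labelled libraries. These ages are those of the labels, and the study's text gives each group as a range of months. The study's design text gives 3 animals per group, and which libraries entered the authors' means is not given in the sources used here. WT fish were siblings of telomerase-deficient tert-/- fish and came from crosses of tert heterozygotes, so the comparison holds WT animals of a tert mutant line and males alone. The WT fish of 9 and 22 months and the tert-/- fish of 2, 9 and 22 months were not compared here. Per the study's methods, WT samples were run separately in DESeq2, with 9, 22 and over 30 months each set against 2 months. Libraries of the WT fish of 9 and 22 months may therefore enter the mean counts given below. Of each gene, the table gives a mean normalized count over the libraries of the authors' fit, that is, reads per gene corrected for the depth of the library, with no value per fish. No spread between fish and no depth per library could therefore be computed from it. The table also holds the authors' own fold changes and p-values of old against young fish, which are not reported here, so that no direction of change with age is given for any gene.

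Cells of the nervous system use these proteins to recognise each other. Cadherins and protocadherins are calcium-dependent adhesion proteins that mostly bind the same protein on a neighbouring cell. Ephrins, semaphorins, Slits and netrins are cues that attract or repel a growing axon, and Eph receptors, plexins, neuropilins, Robo, DCC and Unc5 proteins are the receptors that read them. Neurexins, neuroligins, LRRTM and FLRT proteins join the membranes on both sides of a synapse. In the adult brain the same molecules take part in synapse maintenance, and some of them, such as ephb4 and robo4, are best known from blood vessels.

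Several markers of brain cells were in the table, with high mean normalized counts for some of them. All 5 markers examined for oligodendrocytes were listed, among them mbpa, which encodes myelin basic protein, at 78061 in the authors' deposited table, the highest mean of any listed gene. The neuronal gene snap25a, a component of the machinery that fuses synaptic vesicles, was at 37420, and gfap, which encodes the filament protein of radial glia, was at 1031. Of the markers examined, 1 of 8 for neurons, 2 of 4 for radial glia and 1 of 3 for endothelial cells were listed. Of all named genes, 9.51% are listed. A listed marker is a gene that was called between old and young fish, so these counts do not measure which cell types were present. None of the 4 skeletal muscle markers was listed, and a gene outside the table can be one that was not called or not tested, so its absence does not give its level.

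Most families were represented in the table by a single gene or by none. With cdh5 left out, 224 genes in the reference table of gene names carry a symbol of the 21 families. Of these, 23 (10.3%) are in the authors' table, whereas 2778 of all 29201 named genes (9.51%) are. The share of the families as a whole thus lay near the background. FLRT genes had 2 of 4 annotated genes listed, ephrins 3 of 14, Eph receptors 3 of 16, and Slit and Robo genes together 2 of 8. Cadherins and protocadherins had 9 of 84, semaphorins, plexins and neuropilins 2 of 48, and the neurexin, neuroligin and LRRTM families 1 of 20. No gene was listed for B ephrins, neuropilins, contactins, contactin associated proteins, neurexins, neuroligins, Unc5 receptors, DCC and DSCAM, with 48 annotated genes in these 9 families. These shares were not tested against each other, and most rest on few annotated genes, so no difference between families is read from them. Annotated genes include those that the brain does not express, which could not be listed.

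**Figure D1:**
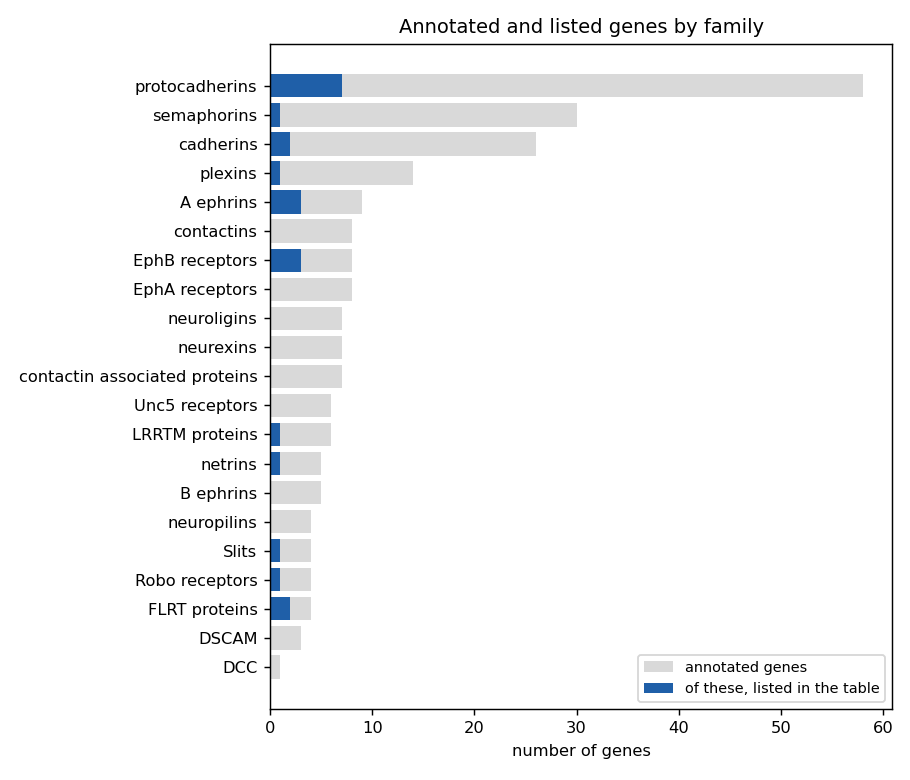
Number of genes per family (x axis) in the reference table of gene names (grey) and the number of these in the authors' table (blue), with cdh5 left out. Protocadherins, with 7 of 58, hold the most listed genes, and 10 families have none by reference symbol, because the member epha5 has no entry in the reference.

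The names of the authors' table and those of the reference differed for a few genes. Of the 22 genes, 20 have an entry in the reference, and cdh19 and epha5 have none. The reference gives a family symbol to 3 further listed genes that the rule does not take, since the table names them otherwise. They are LOC100329245, named cdh7b in the reference (mean normalized count 25.4), si:ch211-199f5.1, named PCDH8 (234), and sb:eu779, named EPHB3 (97.0).

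The mean normalized counts of the 22 genes lay between those of pcdh12, at 27.0, and pcdh1g9, at 961, in the authors' deposited table. Their median was 448, beside a median of 188 over all listed genes, and 15 of the 22 genes were above the latter. Counts of different genes reflect the length of their transcripts as well as their abundance, and no transcript length was at hand, so that the counts do not order the genes by level. They do set the counting error of each gene, which is only a part of its precision. A single library with a count at the mean would have a counting error of 19.3% for pcdh12 and 3.23% for pcdh1g9, which leaves out the spread between fish. Of the 22 genes, 21 had a mean of at least 50 and 14 one of at least 200. pcdh12 was the only one of them under the lower quartile of all listed genes (52.6), and 5 were over the upper quartile (588).

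**Figure D2:**
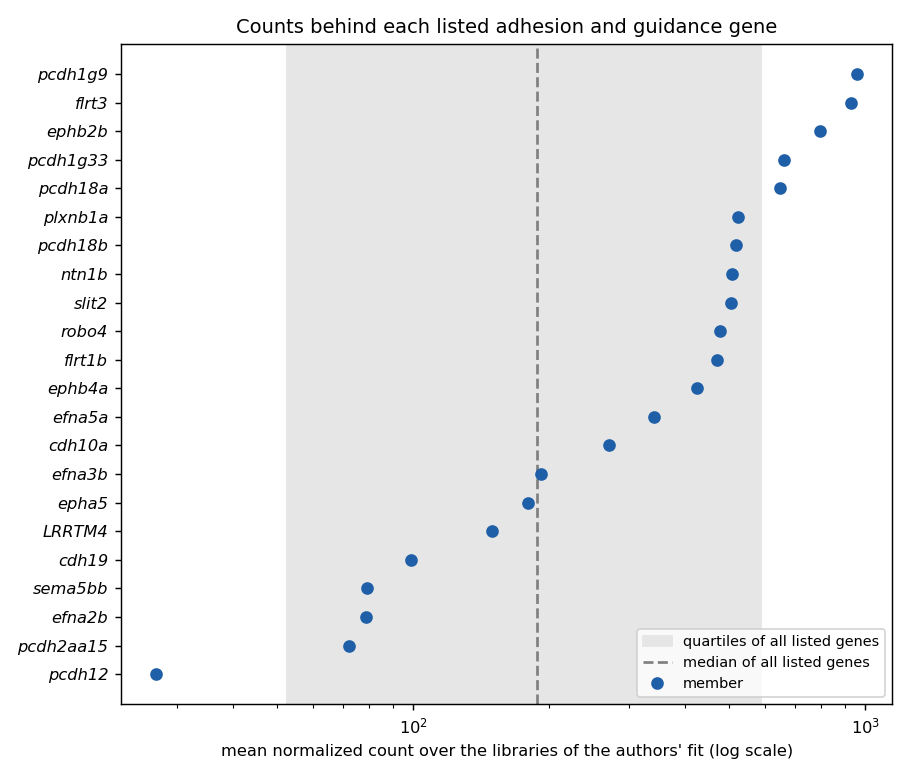
Mean normalized count of each of the 22 genes over the libraries of the authors' fit (x axis, log scale), with the quartiles (band, 52.6 to 588) and median (dashed line, 188) of all 2885 listed genes. pcdh1g9, flrt3, ephb2b, pcdh1g33 and pcdh18a lie over the band and pcdh12 under it.

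The 6 protocadherins comprised members of the gene clusters and genes that stand alone. Clustered protocadherins give neurons a surface identity by which the branches of 1 cell recognise each other. pcdh1g9 (ENSDARG00000057519) and pcdh1g33 (ENSDARG00000099035), of a gamma cluster, lie on chromosome 10 of GRCz11 from 21701551 to 21820133 and from 21783213 to 21820002, with mean normalized counts of 961 and 661. The second gene lies inside the first over all of its 36.8 kb, and their ends differ by 131 bp. Variable exons of a protocadherin cluster are spliced to shared constant exons, so reads of the common part could be assigned to either gene or to none. Whether the 2 values share reads was not tested. pcdh2aa15 (ENSDARG00000088136), an alpha gene of a second cluster, lies on chromosome 14 from 2123123 to 2267515 and had a mean of 72.0. In the RefSeq annotation its neighbours on both sides are other alpha genes, pcdh2aa1 and pcdh2aa3, and neither symbol is in the table. As 9.51% of all named genes are listed, this absence is not read as a result.

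Among the protocadherins outside the clusters, both zebrafish copies of pcdh18 were listed, the only pair among the 22 whose symbols differ in a final a or b alone. pcdh18a (ENSDARG00000089805, chromosome 1, 13260809 to 13271569) had a mean normalized count of 647 and pcdh18b (ENSDARG00000052494, chromosome 14, 42172257 to 42179789) one of 518, a ratio of 1.25 in which differences in transcript length also enter. Pcdh18 belongs to the delta class of protocadherins. Neither copy had another listed gene within 500 kb. pcdh12 (ENSDARG00000076594, chromosome 14, 16308840 to 16328331), known in mammals from endothelial cells, had the lowest mean of all.

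Both cadherins among the 22 genes are of the type II class, whose members mark particular groups of neurons and glia. cdh10a (ENSDARG00000055843) lies on chromosome 2 from 28889936 to 28934284 and had a mean normalized count of 271. In the RefSeq annotation it lies between cdh6 and cdh12a, other type II cadherins, and neither symbol is in the table. With 9.51% of all named genes listed, their absence is not read as a result. cdh19 (ENSDARG00000100598), known in mammals from glia of peripheral nerves, lies on chromosome 24 from 15602 to 27089, with a mean of 99.0. Its start is 15.6 kb from the chromosome end, the only one of the 22 genes within 2000 kb of an end. The nearest listed gene, 4.40 kb away, is LOC100329245, which is also a RefSeq neighbour of cdh19. The reference names it cdh7b, so 2 neighbouring cadherin genes were in the table.

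Ephrins and Eph receptors contributed 6 genes, of which all 3 ephrins were of the A class, which is held in the membrane by a lipid anchor. efna5a (ENSDARG00000089790, chromosome 21, 20488662 to 20636817), a repellent cue in the map of the retina on the tectum, had the highest mean normalized count of the 3, at 342. efna3b (ENSDARG00000098295, chromosome 16, 23087326 to 23189883) was at 192. In the RefSeq annotation it stands between efna4 and efna1b, further ephrins of the A class, and neither symbol is in the table. Since 9.51% of all named genes are listed, their absence is not read as a result. efna2b (ENSDARG00000079740, chromosome 11, 14622379 to 14640317) was at 78.5. It overlaps the listed BX571942.1, and reads of the common stretch could be assigned to either gene or to none. The study names a directional library kit, but the strand setting of the counting is not given in the sources used here.

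Among the 22 genes, the receptors were 1 of the A and 2 of the B class. The 3 of 16 Eph receptors counted by reference symbol hold the listed sb:eu779, named EPHB3, in place of epha5. epha5 (ENSDARG00000058284), a receptor of ephrins of the A class in neurons, lies on chromosome 10 from 12517059 to 12730451 and had a mean normalized count of 179. ephb2b (ENSDARG00000021539), whose mammalian counterpart acts at excitatory synapses and also binds ephrin A5, lies on chromosome 11 from 28166165 to 28424186. Its mean was 796, and its span of 258 kb was the longest of the 22 genes. ephb4a (ENSDARG00000100725, chromosome 5, 68408346 to 68495967), a receptor that marks veins, was at 424. No B ephrin, the usual ligands of the latter 2 receptors, was in the table. They have 5 annotated genes, and 9.51% of all named genes are listed, so this absence is not read as a result.

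Of the Slit, netrin and semaphorin cues and their receptor families, slit2, robo4, ntn1b, sema5bb and plxnb1a were listed. slit2 (ENSDARG00000004246, chromosome 1, 23783349 to 23912788), a repellent for axons that cross the midline, had a mean normalized count of 504. RefSeq annotates 42 transcripts for it, the most among the 20 genes that matched, and their shares cannot be read from 1 value per gene. robo4 (ENSDARG00000009387, chromosome 10, 31244619 to 31284790), a member of the Robo family known mainly from endothelial cells, was at 478. Its RefSeq neighbour robo3, a receptor of commissural axons, is not in the table, nor are other genes that the reference names as Robo. Only 9.51% of all named genes are listed, so these absences are not read as a result. ntn1b (ENSDARG00000022531, chromosome 3, 25708549 to 25814097), a netrin that attracts or repels axons according to their receptors, was at 508. None of the 10 annotated genes of its receptor families DCC, Unc5 and DSCAM was listed. Of all named genes 9.51% are, so absences among so few genes are not read as a result about these receptors.

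sema5bb (ENSDARG00000075648, chromosome 6, 4033832 to 4146073), a semaphorin anchored in the membrane, had a mean normalized count of 79.1, and plxnb1a (ENSDARG00000075821, chromosome 23, 9938236 to 10137322), a plexin that in mammals is the receptor of semaphorin 4D, one of 523. The remaining 29 annotated semaphorins and 13 annotated plexins are not in the table, which lists 9.51% of all named genes. These counts were not tested. The nearest listed gene to plxnb1a is zgc:171775, 9.22 kb away, which is also a neighbour of plxnb1a in the RefSeq annotation.

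The synaptic organisers were 2 FLRT genes and 1 LRRTM gene, which encode membrane proteins with leucine-rich repeats. flrt3 (ENSDARG00000076895, chromosome 13, 33811842 to 33822550), whose mammalian counterpart binds latrophilin and Unc5 proteins, had a mean normalized count of 929. flrt1b (ENSDARG00000075597, chromosome 14, 45883687 to 45932399) was at 471. It overlaps the listed macrod1, and as with efna2b the strand setting of the counting is not given in the sources used here. LRRTM4 (ENSDARG00000106522, chromosome 8, 5844174 to 5850472), which in mammals binds neurexins and heparan sulphate at excitatory synapses, was at 149. The reference gives this symbol to more than 1 zebrafish gene, so the identifier and not the symbol names the gene.

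Many of the genes were long. The span from start to end in the table ranged from 6.30 kb for LRRTM4 to 258 kb for ephb2b, with a median of 68.2 kb, beside 17.2 kb over all listed genes. Of the 22 genes, 10 (45.5%) spanned over 100 kb, as did 195 (6.76%) of all listed genes. The long ones were the receptors ephb2b, epha5 (213 kb) and plxnb1a (199 kb), the cues efna5a (148 kb), slit2 (129 kb), sema5bb (112 kb), ntn1b (106 kb) and efna3b (103 kb), and the clustered protocadherins pcdh2aa15 (144 kb) and pcdh1g9 (119 kb). The genes under 12 kb were LRRTM4, flrt3 (10.7 kb), pcdh18a (10.8 kb), pcdh18b (7.53 kb) and cdh19 (11.5 kb). The comparison of spans describes these gene models and was not tested, since the families were chosen by name and such genes are not independent samples of the genome.

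**Figure D3:**
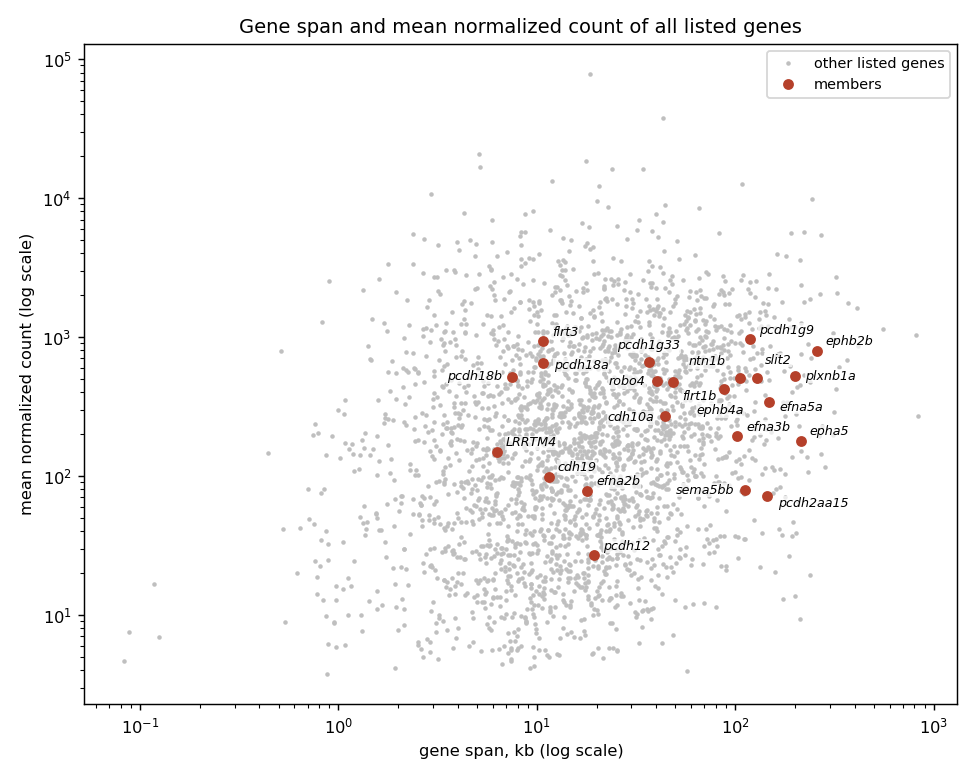
Gene span in kb (x axis, log scale) and mean normalized count (y axis, log scale) of the 22 genes (red, named) and the other 2863 listed genes (grey points). The 10 members over 100 kb have mean normalized counts from 72.0 for pcdh2aa15 to 961 for pcdh1g9.

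The 22 genes lay on 14 chromosomes, with 4 each on chromosomes 10 and 14. No share of all listed genes on these chromosomes is set beside these counts, so no concentration is read from them. Those on chromosome 10 were pcdh1g9, pcdh1g33, epha5 and robo4, and those on chromosome 14 were pcdh12, pcdh18b, pcdh2aa15 and flrt1b. The overlapping pcdh1g9 and pcdh1g33 were the only members within 500 kb of each other. Another listed gene of any kind lay within 500 kb of 18 of the 22 genes, with a median of 2 such genes, beside 2619 of all 2885 listed genes (90.8%) and a median of 3. Of the 22 genes, 4 overlapped a listed gene, as did 95 of all listed genes (3.29%), and pcdh1g9 and pcdh1g33 were 2 of these 4. None of these shares was tested.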

How the data were processed

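Poly(A) RNA of whole zebrafish brains was sequenced by the authors. Per the labels, cutadapt 3.0, STAR, HTSeq and MultiQC 1.9 were used with the GRCz11 assembly. Per the study's methods, the authors counted reads with featureCounts, where the labels name HTSeq, and compared groups with DESeq2, and no step was repeated. Of the deposited values, the signal used here is a count per gene, normalized and averaged by the authors over the libraries of their fit and not scaled by length. The table lists genes with an adjusted p under 0.05. Its fold changes, standard errors, test statistics and p-values are the authors' own comparison and were not used, nor were the 2 sheets that split the genes by direction. No test was therefore run. The depth per library is not in the table, and the study gives it only as a lower bound for every sample and as a mean coverage of the transcriptome.

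Genes were selected by symbol, with case ignored, and repeated entries of 1 identifier were merged. Spans and distances were computed from the positions in the table. Gene names were joined by identifier. RefSeq genes (assembly GRCz12tu) were matched to the 22 genes by symbol or synonym and used for names, numbers of transcripts and neighbours. In the annotated counts cdh5, which the rule excludes, and unc50, which is no Unc5 receptor, were left out. The rule for named genes asked for extremes per kb of coding length, which was not at hand, so all 22 genes are named. The members and lists were chosen with earlier results of these data known. The membership rule was tested on a list of mostly real gene symbols and the distances on made-up positions, each with known answers. Python 3.11.15, numpy 2.4.6, pandas 2.3.3, scipy 1.17.1 and matplotlib 3.10.9 were used.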

Additional observations from a re-analysis of the deposited data

How the results depend on the processing

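The number of genes was 22, and 23 with cdh5 or with the symbols of the reference table. The share of annotated family genes that are listed was 10.3%, beside 9.51% of all named genes. It was 9.38% beside 7.31% when listed genes needed a mean count of 50 or more, and 6.70% beside 4.74% at 200. Among protein-coding RefSeq genes matched by symbol, an alternative chosen after seeing the data, it was 8.62% of 232 genes beside 9.74%. The share thus lay over or under the background according to the gene set used. Of the 22 genes, LRRTM4 and pcdh1g33 had no RefSeq match. Whether listed genes lost in the matching of names lowered the RefSeq share was not tested. The median mean normalized count of the genes was 448, and 471 without those under 50. The median span was 68.2 kb, and 87.6 kb without the gene under 50. With the overlapping pair counted once by its longer gene pcdh1g9, also chosen after seeing the data, the medians were 424 and 87.6 kb. Keeping the shorter pcdh1g33 instead would give a median span under 68.2 kb. Counts per kb of coding length and protein lengths were not run, as no coding length was at hand. No paired analysis was possible because the values are pooled over libraries.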

Other observations

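The table also lists genes outside the named families whose proteins bind or accompany the guidance cues, chosen after the table was seen. Partners outside the table were not counted, so these genes give no share of such partners that is listed. neo1a, which encodes neogenin, a relative of DCC that binds netrins and repulsive guidance molecules, had a mean normalized count of 609 in the authors' deposited table. Both rgma, at 2270, and rgmb, at 838, which encode repulsive guidance molecules, were listed as well. adgrl2a, a latrophilin gene whose mammalian counterpart binds FLRT proteins, was at 960, draxinb, which encodes a secreted repellent that binds netrin and DCC in other vertebrates, at 235, and boc, a gene of a co-receptor of hedgehog in commissural axons, at 424. The excluded cdh5, the cadherin of endothelial junctions, was at 348.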
